A study of Rattus norvegicus with 21 samples.

Results

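Rat infarct tissue was compared after 6 h of coronary ligation and 18 h of reperfusion, with and without pretreatment by the agent labelled F. MI6h_F, with F, held libraries 1, 2 and 4, called F1, F2 and F4 here. MI6h_R, without F, held libraries 11, 21 and 31, called R11, R21 and R31. These 6 of the 21 libraries, and all 11742 of 17085 genes that passed a filter on low counts, make up the comparison. All animals were Sprague Dawley rats. For the 6 libraries compared, the left anterior descending coronary artery was tied, and tissue was taken from the infarct zone 24 h after the ligation began. The other groups of 3 libraries were Sham hearts, 1 h of ligation with 23 h of reperfusion (MI1h_R, and MI1h_F with F), and ligation without reperfusion for 24 h (MI24h, and MI24h_F with F). The design text names fenofibrate as the pretreatment, and F is taken to stand for it. No Sham group with F was analysed here, the labels give no age, sex, dose or batch, and they do not say that the 3 libraries of a group came from separate animals. P-values therefore measure the spread between libraries within groups, estimated over all 21 libraries, and that spread may be technical. An effect of F and any difference in how the F libraries were made cannot be told apart.

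Fenofibrate is a lipid-lowering drug whose active acid binds PPAR alpha, a nuclear receptor that pairs with RXR and switches on genes for fatty acid uptake, oxidation and ketone production. The heart lives largely on fatty acids, and PPAR alpha, the estrogen-related receptors (ERR) and their coactivator PGC-1 alpha keep that programme running. Reopening an artery late in an infarct restores flow to muscle that is mostly dead, which is then cleared by neutrophils and macrophages and filled by fibroblasts.

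The 6 libraries held between 13425038 and 18393795 estimated counts. Mitochondrially encoded genes held 17.9% ± 2.60 of all counts in MI6h_F and 14.1% ± 3.35 in MI6h_R (SD, n = 3 each). Levels below are CPM, counts scaled to a common library size. Cardiomyocyte RNA was low throughout: the 13 measured markers summed to between 3553 and 9792 CPM in the 6 libraries and to between 56481 and 110369 CPM in Sham. F1 and R31 stood apart within their groups. The cardiomyocyte markers summed to 9248 CPM in F1 against 4473 and 3553 in F2 and F4, and to 9792 CPM in R31 against 6080 and 3919 in R11 and R21. In a principal component analysis of the 18 injured libraries, F1 lay at -27.1 on the component with the most variance (27.6%), F2 at 8.27 and F4 at 9.42. The 3 libraries of MI1h_F lay between -38.6 and -28.95 on that component. Results that end without F1, or without any other library, are named with that library below. In bulk tissue, fewer cells of a type and less RNA per cell cannot be told apart.

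With F, 460 genes were higher (3.92% of those tested) and 670 were lower (5.71%), so that 1130 were called in all (9.62%) by edgeR's quasi-likelihood test at an adjusted p under 0.05. The median log2 fold change was 0.86 among the genes called higher, -0.82 among those called lower and -0.02 over all genes tested. A change of at least 1 on the log2 scale was seen in 176 of the genes called higher and 200 of those called lower. The CPM of the groups did not overlap in 1123 of the 1130 called genes, beside 4067 (34.6%) of all genes tested. On the length-scaled TPM values 266 genes were higher and 979 lower, so that 21.4% of the called genes were higher in place of 40.7%. Leaving out 1 library left 258 (without F2), 338 (without R11), 461 (without R21), 540 (without F1), 649 (without R31) or 895 (without F4) calls. The genes called higher had a median relative length of 1.23, those called lower 0.949 and those not called 0.967. With a trend on gene length removed, an alternative chosen after seeing the data, 528 genes were higher and 768 lower, and 1016 of the 1130 calls were kept.

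**Figure D1:**
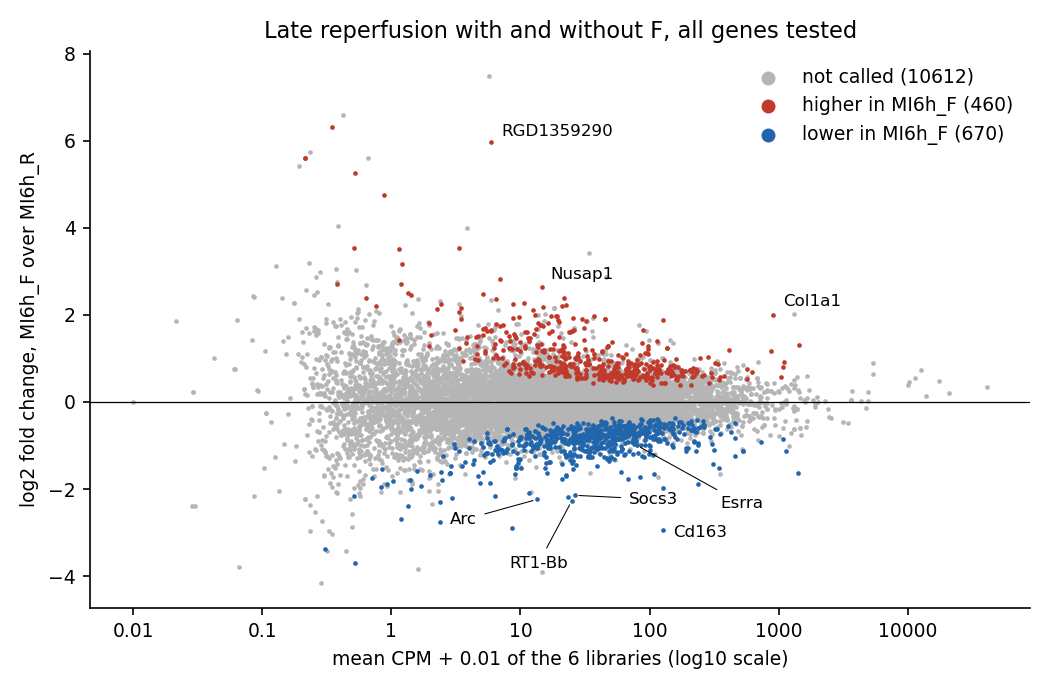
Each point is 1 of the 11742 genes tested, with the mean CPM of the 6 libraries (plus 0.01, log10 scale) on the x axis and the log2 fold change of MI6h_F over MI6h_R on the y axis. The 460 genes called higher are red, the 670 called lower are blue, and Cd163 is the lowest of the labelled genes at -2.95.

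Of 6 measured receptors of the PPAR and RXR families 0 were called by edgeR, with a median log2 fold change of -0.05. DESeq2, voom, the TPM values and scaling by library size alone each called 1 lower. Ppara, the receptor of fenofibrate itself, stood at 7.04, 1.18 and 2.30 CPM in F1, F2 and F4 and at 1.21, 1.93 and 6.23 CPM in R11, R21 and R31. F1 and R31 were the high libraries of their groups, and the groups overlapped (log2 fold change 0.17 ± 0.68, SE). Ppard, the ubiquitous family member, differed by -0.27 ± 0.28, and Pparg, best known from fat cells, by 0.51 ± 0.23 (adjusted p = 0.162). Their partners Rxra and Rxrb had log2 fold changes of -0.45 ± 0.29 and -0.58 ± 0.19 (adjusted p = 0.353 and 0.0622).

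Among the ERR receptors Esrra fell, and the level of Esrrb and Esrrg did not pass the test. Esrra, which drives genes of mitochondrial energy metabolism, stood at 52.7, 56.4 and 50.2 CPM with F and at 113, 105 and 101 CPM without. Every library with F lay well below every library without, and the groups did not overlap (log2 fold change -0.997 ± 0.16, adjusted p = 0.00363). The call held without each of the 6 libraries in turn, with a log2 fold change of -1.04 to -0.95. Esrrg stood at 14.9, 6.85 and 4.73 CPM with F and at 3.88, 3.55 and 6.45 CPM without (0.93 ± 0.44, adjusted p = 0.19). Esrrb stood under 3 CPM in each of the 6 libraries (-1.06 ± 0.69, adjusted p = 0.355). Ppargc1a, which encodes PGC-1 alpha, ranged from 0.482 to 10.02 CPM over the 6 libraries, with F1 and R31 the highest of their groups (1.12 ± 0.81, adjusted p = 0.408).

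Few known PPAR alpha target genes were called, and a shift of the list as a group was not tested. Of 41 measured members 1 was called higher and 0 lower, beside 3.92% and 5.71% of all genes, and the median log2 fold change was -0.06. That median was -0.35 without F1 and 0.48 without R31, so its direction depended on single libraries. The called member was Eci2, an enoyl-CoA isomerase of unsaturated fatty acid breakdown, at 26.8, 20.2 and 19.9 CPM with F and 12.8, 8.49 and 11.6 CPM without (1.02 ± 0.29, adjusted p = 0.0331). Its counts were identical to those of its neighbour Eci3 in the file, so the reads of the pair are uncertain, and its call was lost without F1, F2, R11, R21 or R31 (adjusted p up to 0.127). Cpt1a, the liver-type gatekeeper of fatty acid entry into mitochondria, stood at 85.5, 87.4 and 123 CPM with F and at 135, 138 and 139 CPM without (-0.48 ± 0.18, adjusted p = 0.101). Me1, the malic enzyme, and Vnn1, a pantetheinase, had log2 fold changes of 0.48 ± 0.23 and 0.89 ± 0.44 (adjusted p = 0.196 and 0.206). Pdk4 and Angptl4, textbook targets chosen after their values were seen, did not pass either. Pdk4, the kinase that shuts pyruvate dehydrogenase, stood at 76.1, 39.7 and 23.5 CPM with F and 46.1, 21.6 and 109 CPM without. Angptl4, an inhibitor of lipoprotein lipase, stood at 60.2, 222 and 167 CPM with F and 275, 208 and 311 CPM without (-0.82 ± 0.55, adjusted p = 0.366).

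Few members were called in the steps of fatty acid use. In mitochondrial fatty acid oxidation 1 of 22 members, Eci2 again, was called higher, a share near the 3.92% of all genes. The list's median of -0.06 ran from -0.39 without F1 to 0.51 without R31. Etfb, an electron carrier for that pathway, stood at 48.3, 22.1 and 35.3 CPM with F and 65.8, 45.2 and 70.7 CPM without (-0.78 ± 0.31, adjusted p = 0.115). In peroxisomal oxidation 0 of 13 members were called by edgeR, with a median of 0.14. In uptake and activation 9 of 13 log2 fold changes were positive, with a median of 0.24 (0.003 without F1). In that list 1 member was called lower, a share near the 5.71% of all genes. This was Gpihbp1, the capillary protein that anchors lipoprotein lipase, at 11.4, 13.1 and 16.4 CPM with F and 48.4, 20.4 and 39.5 CPM without (-1.41 ± 0.33, adjusted p = 0.0151). Its call was lost without F1, F2 or R11 (adjusted p up to 0.079). Lpl, the lipase itself, stood at 892, 452 and 458 CPM with F and 316, 199 and 521 CPM without (0.80 ± 0.35, adjusted p = 0.151).

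Single nuclear-encoded subunits of the respiratory chain were called lower, with list medians near that of all genes. The transcripts of the mitochondrial genome did not pass the test, and whether they differ from the nuclear-encoded subunits was not tested. Of the complex I list 1 of 33 members was lower, a share below the 5.71% of all genes. In complexes II to V 4 of 36 were lower. The medians were -0.09 and -0.05, beside -0.02 over all genes. Cox8a, a small subunit of cytochrome oxidase, stood at 44.8, 37.0 and 47.9 CPM with F and 108, 88.2 and 86.8 CPM without (-1.13 ± 0.24, adjusted p = 0.00861). Cox5b, another such subunit, stood at 65.2, 34.7 and 50.3 CPM with F and 112, 92.1 and 136 CPM without (-1.18 ± 0.27, adjusted p = 0.0126). Ndufa13 of complex I stood at 36.9, 20.3 and 34.3 CPM with F and 81.5, 56.5 and 90.2 CPM without (-1.32 ± 0.30, adjusted p = 0.0126). In each of these genes every library with F lay below every library without. Cox6a1 and Uqcr11 were the other called members, at -0.94 ± 0.22 and -1.19 ± 0.31 (adjusted p = 0.0153 and 0.0231). Without F2 none of these 5 genes was called (adjusted p = 0.0569 to 0.121), and Cox6a1 was also lost without R11 and Uqcr11 without F4 or R31. All 13 protein genes of the mitochondrial genome had a positive log2 fold change, with a median of 0.45 and 0 calls by edgeR. ND6 stood at 834, 1188 and 693 CPM with F and 409, 359 and 670 CPM without (0.92 ± 0.36, adjusted p = 0.112). COX1 and COX2 overlapped between the groups (0.34 ± 0.31 and 0.74 ± 0.30).

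In glycolysis 1 of 14 members was lower and 0 were higher, with a median of -0.43, a share near the 5.71% of all genes called lower. Pfkl, a phosphofructokinase, stood at 76.5, 94.2 and 82.4 CPM with F and 179, 159 and 120 CPM without (-0.85 ± 0.21, adjusted p = 0.0172). Gapdh stood at 1135, 1120 and 1209 CPM with F and 1877, 1685 and 1697 CPM without, a difference that did not pass the threshold (-0.60 ± 0.19, adjusted p = 0.0523). Pkm, pyruvate kinase, differed by -0.54 ± 0.19 (adjusted p = 0.0778). Of 19 hypoxia response genes 1 was higher, near the 3.92% of all genes. Bnip3l, a receptor for the removal of mitochondria, stood at 143, 206 and 171 CPM with F and 127, 97.3 and 81.9 CPM without (0.76 ± 0.22, adjusted p = 0.0392). Plod2, a collagen lysyl hydroxylase, had a log2 fold change of 0.72 ± 0.23 (adjusted p = 0.056). Pfkl lost its call without F1, R11 or R21 and Bnip3l without F2, F4, R21 or R31 (adjusted p up to 0.0815 and 0.174).

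Genes of mitosis rose together and were among the genes with the largest increases. Of 21 symbols on the mitosis list 16 were tested, and 14 of them were higher and 0 lower, beside 3.92% of all genes. Their log2 fold changes ran from 0.70 to 2.64, with a median of 1.73 against -0.02 over all genes. The summed level of the 16 genes was 919, 490 and 491 CPM in F1, F2 and F4 and 187, 197 and 214 CPM in R11, R21 and R31. Every library with F stood above every library without, and F1 was the highest. Without F1 or without R11 6 of the 16 were called, without R21 7, and without the others 10 to 13, while every median over the 16 alternatives was between 1.34 and 1.87. The same sum ranged from 109 to 228 CPM in Sham and from 326 to 570 CPM in MI1h_R, a range that holds F2 and F4.

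Nusap1, which bundles spindle microtubules, had the largest log2 fold change of the 16 genes. It stood at 40.4, 17.5 and 18.4 CPM with F and at 4.02, 4.21 and 4.02 CPM without (log2 fold change 2.64 ± 0.43, adjusted p = 0.00363). Cenpf, a kinetochore protein, stood at 60.8, 25.5 and 22.7 CPM with F and at 4.94, 8.55 and 7.33 CPM without (2.39 ± 0.49, adjusted p = 0.00836). Kif23, a motor of the midzone where daughter cells part, stood at 54.6, 31.4 and 25.9 CPM with F and at 6.69, 8.73 and 8.38 CPM without (2.23 ± 0.36, adjusted p = 0.00363). In all 3 genes the library with F that was lowest held more than 2 times the level of any library without. Prc1, which crosslinks midzone microtubules, stood at 89.3, 42.9 and 45.05 CPM with F and at 15.2, 13.7 and 16.5 CPM without (1.96 ± 0.35, adjusted p = 0.00457). Bub1, a checkpoint kinase, stood at 60.3, 43.1 and 39.9 CPM with F and 13.1, 14.7 and 16.4 CPM without (1.69 ± 0.24, adjusted p = 0.00264). Its SE was the smallest of these 5 genes. Aurkb and Aurka, the mitotic kinases, were the 2 members not called, at 0.98 and 0.70 (adjusted p = 0.0663 and 0.288). The calls of the 5 genes above held without each of the 6 libraries in turn.

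The promoters of 4 of these genes are printed because mitotic genes are known to share a pair of short elements. The CCAAT box is bound by the factor NF-Y, and the cell cycle homology region, with the core TTTGAA, is bound by the DREAM and MuvB complexes that keep such genes silent in resting cells and active in dividing ones. Sequences are from RefSeq on GRCr8, while the counts were made on rn7, and run from 250 bases before to 50 bases after the annotated start, 5′ to 3′ on the gene's strand. Capitals mark CCAAT or its reverse ATTGG, and TTTGAA or its reverse TTCAAA. The windows are chr3:127057045-127057344 on the plus strand for Nusap1, chr13:103760837-103761136 on the minus strand for Cenpf, chr8:71320535-71320834 on the minus strand for Kif23 and chr1:143659231-143659530 on the plus strand for Prc1.
Nusap1: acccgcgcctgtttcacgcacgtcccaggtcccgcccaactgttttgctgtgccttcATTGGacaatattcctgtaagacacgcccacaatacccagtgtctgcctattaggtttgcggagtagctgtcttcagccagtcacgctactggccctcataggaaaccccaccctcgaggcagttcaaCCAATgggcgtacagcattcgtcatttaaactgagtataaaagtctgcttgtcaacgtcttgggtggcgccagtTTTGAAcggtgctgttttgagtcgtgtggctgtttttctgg
Cenpf: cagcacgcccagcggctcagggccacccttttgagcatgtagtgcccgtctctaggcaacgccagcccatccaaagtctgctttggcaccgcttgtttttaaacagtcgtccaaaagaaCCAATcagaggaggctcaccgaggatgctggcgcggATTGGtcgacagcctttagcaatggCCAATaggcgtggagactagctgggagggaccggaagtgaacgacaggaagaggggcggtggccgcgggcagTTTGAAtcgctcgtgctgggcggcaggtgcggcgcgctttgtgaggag
Kif23: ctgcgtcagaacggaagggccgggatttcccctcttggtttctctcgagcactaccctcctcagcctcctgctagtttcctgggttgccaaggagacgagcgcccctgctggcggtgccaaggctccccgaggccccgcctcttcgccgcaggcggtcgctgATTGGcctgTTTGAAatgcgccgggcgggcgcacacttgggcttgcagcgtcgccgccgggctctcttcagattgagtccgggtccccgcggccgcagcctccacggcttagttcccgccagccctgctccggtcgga
Prc1: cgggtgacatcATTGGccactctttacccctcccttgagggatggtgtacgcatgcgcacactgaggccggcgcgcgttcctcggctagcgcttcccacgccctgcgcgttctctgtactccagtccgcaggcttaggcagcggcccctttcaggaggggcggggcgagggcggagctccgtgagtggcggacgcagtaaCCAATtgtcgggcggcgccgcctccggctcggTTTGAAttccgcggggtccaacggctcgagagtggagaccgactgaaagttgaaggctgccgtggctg

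Each of the 4 windows held at least 1 CCAAT box on either strand (3 in Cenpf, 2 in Nusap1 and Prc1, 1 in Kif23) and 1 TTTGAA. Of the 12 tested mitosis genes with a promoter entry, 9 (75%) held CCAAT, 9 held TTTGAA and 8 (66.7%) held both. Among 9283 tested genes with an entry 37.1% held CCAAT, 11.7% TTTGAA and 4.6% both, and among all 33469 promoters 37.5%, 18.3% and 7.41%. The promoter of Bub1 held neither, although Bub1 rose as well. The motifs can share letters where they adjoin, as they do in the Mki67 promoter, and a match describes these letters only.

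Some of the 15 largest increases named by rule were in other genes with a known role in cell division, given here as single genes and not as a list. Cks2, a subunit of cyclin-dependent kinases, stood at 25.6, 18.7 and 16.5 CPM with F and 4.17, 4.996 and 4.796 CPM without (2.12 ± 0.38, adjusted p = 0.00459). Ttk, another checkpoint kinase, stood at 29.5, 27.8 and 25.0 CPM with F and 6.79, 6.08 and 8.10 CPM without (1.97 ± 0.39, adjusted p = 0.00643). In Ttk F1 was close to F2 and F4. The spindle gene Aspm and the chromosome motor Kif4a rose by 1.97 ± 0.39 and 1.99 ± 0.33 on the log2 scale, and both calls held without each library. Ckap2l, a spindle protein, rose by 2.27 ± 0.50 (adjusted p = 0.0106), a call lost without R11 (adjusted p = 0.058).

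Of 19 measured genes of DNA replication 0 were called by edgeR, and the median was 0.32, with 14 log2 fold changes positive. Voom called 2 higher and 1 lower, and the fit to the 6 libraries alone 2 higher. The 19 genes summed to 1090, 1123 and 1106 CPM with F and 959, 864 and 961 CPM without, so the groups did not overlap. Of the 19 single genes 9 lay higher and 1 lower without overlap, beside 34.6% of all genes in either direction. Whether the list differs from mitosis was not tested. Pcna, the sliding clamp of the replication fork, stood at 206, 264 and 238 CPM with F and 191, 163 and 166 CPM without (0.44 ± 0.25, adjusted p = 0.275). The groups did not overlap, yet the difference did not pass the test. Rfc4, a subunit of the clamp loader, had a log2 fold change of 0.90 ± 0.37, and Gins2, of the replicative helicase, had one of -0.49 ± 0.18 (adjusted p = 0.13 and 0.0901).

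**Figure D2:**
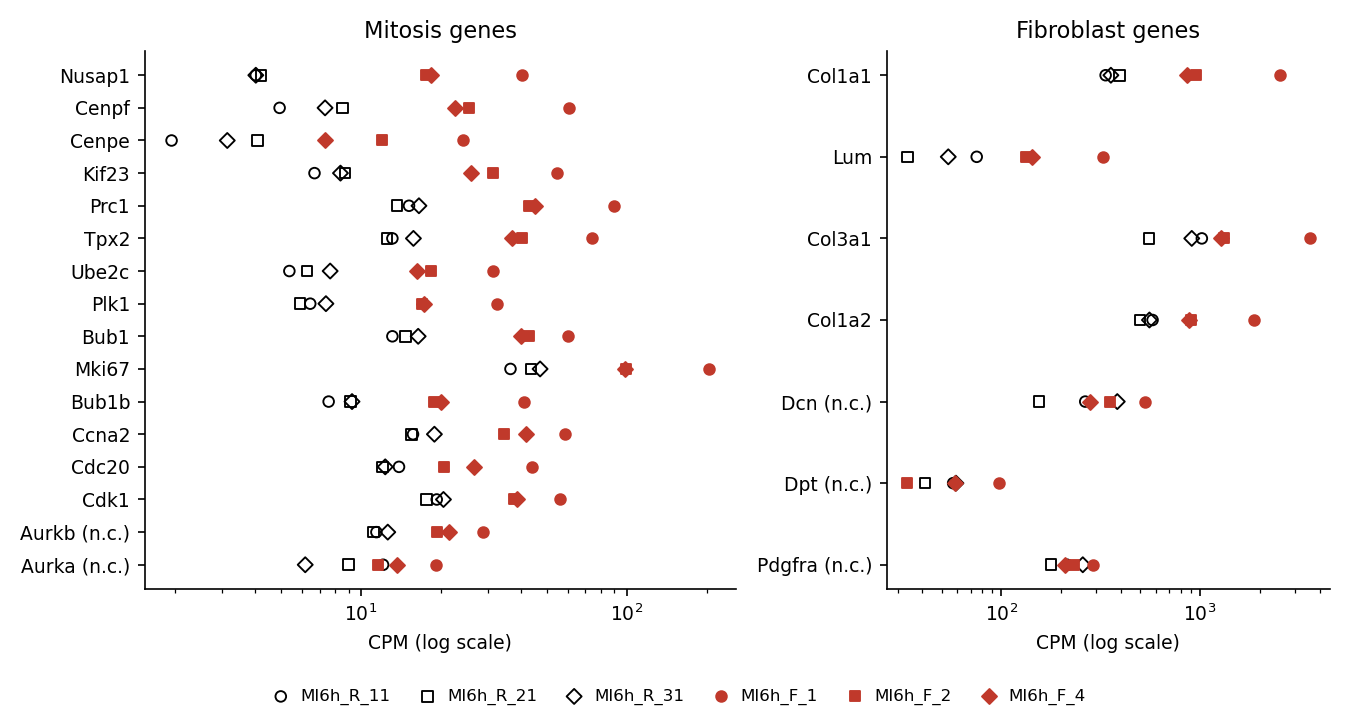
CPM (log scale) of the 16 tested mitosis genes and the 7 fibroblast genes in each of the 6 libraries, ordered by log2 fold change. Filled red symbols are the libraries with F and open symbols those without, and n.c. marks genes not called. F1 (filled circle) is the highest library in each of these genes, and 14 mitosis and 4 fibroblast genes were called higher.

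Collagen and matrix genes of fibroblasts were also higher with F, most of all in F1. Of 7 fibroblast markers 4 were higher and 0 lower, with a median of 1.16, and of 26 genes of matrix and myofibroblasts 6 were higher and 0 lower, with a median of 0.37 (3.92% of all genes). The lists share collagen genes. The 7 markers summed to 9182, 3917 and 3703 CPM with F and 2540, 1849 and 2571 CPM without. Col1a1, the main chain of type I collagen, stood at 2520, 956 and 861 CPM with F and 334, 391 and 355 CPM without (log2 fold change 2.00 ± 0.37, adjusted p = 0.00496). F2 and F4 lay well above the libraries without F, and F1 lay far above both. In Sham Col1a1 stood at 1273 ± 374 CPM (SD, n = 3). The call of Col1a1 held without each library, with a log2 fold change of 1.33 without F1.

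Other matrix genes rested on fewer libraries. Lum, the proteoglycan lumican, stood at 326, 133 and 143 CPM with F and 75.0, 33.7 and 54.0 CPM without (1.89 ± 0.40, adjusted p = 0.0093). Ogn, or osteoglycin, stood at 127, 51.4 and 36.7 CPM with F and 19.8, 10.2 and 27.3 CPM without (1.91 ± 0.41, adjusted p = 0.00969). Cilp, a matrix protein known from cartilage and from fibrotic hearts, rose by 3.54 ± 0.77, from at most 0.679 CPM to between 1.12 and 14.01 CPM. None of these 3 was called without F1 (adjusted p = 0.0502, 0.0573 and 0.0712). Col1a2 and Col3a1, the partner chain and type III collagen, rose by 1.16 ± 0.29 and 1.31 ± 0.37 (adjusted p = 0.0215 and 0.0337). Both lost the call without F1, R11, R21 or R31, with log2 fold changes of 0.71 and 0.65 without F1. Without F1 1 fibroblast marker and 1 gene of the matrix list were called. Of 15 matrix proteases and inhibitors 0 were higher and 2 lower, beside 3.92% and 5.71% of all genes. Adamts1, a protease that cuts proteoglycans, stood at 143, 254 and 225 CPM with F and 378, 392.3 and 450 CPM without (-0.97 ± 0.19, adjusted p = 0.00696), and its call held without each library. Adamts4, its relative, fell by 1.62 on the log2 scale (SE 0.47, adjusted p = 0.0387), a call lost without any 1 of the 6 libraries (adjusted p up to 0.128).

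Cd163 fell more than any other called gene described here, and it did so from a level seen in no other group. Cd163, a receptor for haemoglobin bound to haptoglobin and a marker of tissue-resident macrophages, stood at 21.3, 24.8 and 40.8 CPM with F and at 157, 305 and 211 CPM without (log2 fold change -2.95 ± 0.58, adjusted p = 0.0064). The libraries of the other 5 groups held 7.64 to 46.6 CPM, Sham among them at 21.1 to 29.8 CPM, so that MI6h_R stood apart and MI6h_F lay in the range of the rest. The call held without each library. Maf, a factor of macrophage maturation, stood at 27.3, 26.4 and 43.9 CPM with F and at 62.0, 99.4 and 51.7 CPM without (-1.13 ± 0.35, adjusted p = 0.0467). Maf lost its call without F1, F2, R11 or R21 (adjusted p up to 0.203).

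The medians of the macrophage lists did not share this fall. Of 12 resident-type macrophage genes 2, Cd163 and Maf, were lower (5.71% of all genes) and the median was 0.10. Lyve1 and Igf1, which mark resident macrophages but are made by lymphatic cells and fibroblasts too, pointed upward (0.66 ± 0.22 and 0.68 ± 0.23, adjusted p = 0.0668 and 0.0682). Mrc1, the mannose receptor, overlapped between the groups (-0.45 ± 0.31). Of 9 general monocyte and macrophage genes only Cd163 was lower, and of 11 genes of recruited macrophages 0 were called by edgeR. The fit to the 6 libraries alone called 1 general, 1 recruited and 3 resident-type genes higher, and 1 resident-type gene lower. Spp1, or osteopontin, stood at 1670, 1947 and 2651 CPM with F and 391, 728 and 425 CPM without, with a wide error over the 21 libraries (2.02 ± 1.29, adjusted p = 0.341). The 9 general markers summed to 5954, 6979 and 11134 CPM with F and 8552, 9285 and 3626 CPM without, so the groups overlapped. The 12 resident-type genes, Cd163 among them, summed to 951, 762 and 852 CPM with F. Without F they summed to 1019, 1192 and 1067 CPM, so those sums did not overlap. Of the 12 single genes 3 lay higher and 2 lower without overlap, and the part of Cd163 in the sum was not tested.

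All 8 measured genes of MHC class II, which present antigen to helper T cells, had a negative log2 fold change, and 1 of them was called lower, beside 5.71% of all genes. Their median was -0.61, and without R31 3 of them were called lower. RT1-Bb, a beta chain, stood at 5.31, 9.83 and 10.4 CPM with F and 71.5, 37.3 and 14.99 CPM without (-2.28 ± 0.61, adjusted p = 0.0263). R31 was the lowest library without F, and the call was lost without F1, F2, R11 or R21 (adjusted p up to 0.138). RT1-Db1 stood at 26.6, 23.2 and 24.8 CPM with F and 99.7, 43.8 and 22.7 CPM without (-1.16 ± 0.45, adjusted p = 0.106). Cd74, the invariant chain, differed by -0.57 ± 0.26 (adjusted p = 0.169). Genes of this family resemble one another, so reads may be split between them.

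Of 9 measured neutrophil genes 0 passed edgeR's test in the fit to all libraries, and 2 were lower in the fit to the 6 libraries alone. Of the 9, 8 had a negative log2 fold change, and the median was -0.42. Their sum was 683, 838 and 736 CPM with F and 1303, 1302 and 1163 CPM without, and the groups did not overlap. Of the 9 single genes 4 lay lower and 0 higher without overlap, beside 34.6% of all genes in either direction. Il1r2, a decoy receptor for interleukin 1, stood at 37.0, 71.7 and 52.1 CPM with F and 166, 193 and 175 CPM without (-1.73 ± 0.59, adjusted p = 0.07). S100a9, a calcium-binding alarm protein, stood at 283, 261 and 274 CPM with F and 567, 428 and 338 CPM without (-0.70 ± 0.51, adjusted p = 0.407). Cxcl3, a chemokine that draws neutrophils, fell, from 9.07, 16.2 and 20.5 CPM to 0.863, 3.74 and 1.58 CPM (-2.89 ± 0.72, adjusted p = 0.0221). Its call was lost without F1, F4, R21 or R31 (adjusted p up to 0.0769).

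Of 17 NF-kappaB target genes 4 were lower and 0 higher, beside 5.71% and 3.92% of all genes, with a median of -0.28. NF-kappaB is the factor through which injury signals raise inflammatory genes. Sod2, the mitochondrial superoxide dismutase, stood at 228, 290 and 294 CPM with F and 535, 517 and 878 CPM without (log2 fold change -1.25 ± 0.25, adjusted p = 0.00715). Nfkb2, a subunit of the factor, stood at 55.6, 62.2 and 65.3 CPM with F and 101, 100 and 99.2 CPM without (-0.72 ± 0.15, adjusted p = 0.00857). The libraries without F differed by less than 2 CPM in Nfkb2, and all 3 with F lay lower. Both calls held without each library. Relb and Bcl3, further members of that family, fell by 0.62 and 0.74 on the log2 scale (SE 0.19 and 0.21, adjusted p = 0.0487 and 0.0367), calls lost without each library but F4 for Relb and without any 1 of the 6 for Bcl3.

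Socs3, the feedback inhibitor that interleukin 6 and STAT3 induce, fell clearly. It stood at 7.63, 10.7 and 10.8 CPM with F and at 35.1, 38.2 and 55.7 CPM without (-2.14 ± 0.42, adjusted p = 0.00657). The levels with F were near those of Sham (5.10 ± 3.71 CPM, SD, n = 3). Tnfrsf12a, the receptor of the cytokine TWEAK, stood at 33.6, 34.1 and 51.0 CPM with F and 146, 123 and 122 CPM without (-1.72 ± 0.37, adjusted p = 0.0093). Its adjusted p was 0.0581 without F2, while the call of Socs3 held without each library.

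Genes that cells switch on within minutes of a stimulus, the immediate early genes, were lower in 4 of 19 cases and higher in 0, beside 5.71% and 3.92% of all genes, with a median of -0.45. Klf2, a factor of endothelium under flow, stood at 82.6, 57.9 and 61.1 CPM with F and 148, 128 and 131 CPM without (-1.01 ± 0.25, adjusted p = 0.0193). Junb, a subunit of AP-1, stood at 146, 166 and 162 CPM with F and 358, 306 and 282 CPM without (-0.998 ± 0.29, adjusted p = 0.0392). Klf6 and Fosl1 were the other called members, with log2 fold changes of -0.83 ± 0.23 and -0.97 ± 0.30. The 4 calls were fragile: 0 members were called without F2, and Junb was lost without any 1 library. Arc, a gene of the same rapid class that is outside the list, stood at 2.52, 6.58 and 4.99 CPM with F and 24.0, 16.3 and 26.2 CPM without (-2.24 ± 0.32, adjusted p = 0.00264). Its call held without each library.

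Of 21 measured genes of cell death and growth arrest 3 were lower and 1 was higher, beside 5.71% and 3.92% of all genes. Bax, which opens the outer mitochondrial membrane, stood at 25.9, 21.2 and 34.9 CPM with F and 87.7, 69.3 and 54.1 CPM without (log2 fold change -1.36 ± 0.25, adjusted p = 0.00508). Bcl2l1, whose long form opposes Bax, fell as well, with 87.9, 94.1 and 99.2 CPM against 194, 143 and 166 CPM (-0.84 ± 0.16, adjusted p = 0.00602). Cdkn1a, the cell cycle inhibitor p21, stood at 18.5, 18.9 and 24.8 CPM with F and 59.1, 53.5 and 59.4 CPM without (-1.47 ± 0.28, adjusted p = 0.00544). These 3 genes were called without each library. Casp1, the protease that matures interleukin 1 beta, rose from 26.2, 22.2 and 17.3 CPM to 39.5, 58.7 and 50.7 CPM (1.18 ± 0.25, adjusted p = 0.0093), with an adjusted p of 0.0553 without F2.

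Of 26 genes of the unfolded protein and integrated stress responses 1 was lower and 1 higher, shares at or below the 5.71% and 3.92% of all genes. Ppp1r15a, which ends the block on translation, stood at 44.5, 44.5 and 71.0 CPM with F and 147, 134 and 106 CPM without (-1.27 ± 0.26, adjusted p = 0.00766). Canx, a chaperone of the endoplasmic reticulum, rose by 0.58 ± 0.18 (adjusted p = 0.0484). Of 14 heat shock chaperones 2 were lower, beside 5.71% of all genes. Hspb8 stood at 193, 147 and 146 CPM with F and 323, 232 and 387 CPM without (-0.95 ± 0.24, adjusted p = 0.0221). Hspb7, made chiefly by heart and skeletal muscle, fell by 1.13 on the log2 scale (SE 0.32, adjusted p = 0.0339). Of 11 glucocorticoid response genes 2 were lower (5.71% of all genes), and the log2 fold changes of all 11 were negative, with a median of -0.55. Per1, a clock gene that glucocorticoids induce, stood at 30.3, 20.6 and 24.8 CPM with F and 64.4, 49.5 and 59.4 CPM without (-1.20 ± 0.29, adjusted p = 0.0179). Fkbp5, a chaperone of the glucocorticoid receptor, had a log2 fold change of -0.88 ± 0.23 (adjusted p = 0.0233). None of these 6 genes was called without F2 (adjusted p = 0.0505 to 0.214), and every one but Ppp1r15a was lost without at least 1 further library, R11 for each of them.

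Interferon response genes lay higher in MI6h_F in all 24 measured cases, but 1 passed the test. The median was 1.33, and 15 of the 24 did not overlap between the groups (34.6% of all genes). The 24 genes summed to 1976, 2064 and 955 CPM with F and 844, 694 and 719 CPM without. F4 lay just above the libraries without F, and F1 and F2 above 2 times their level. In Sham the same sum ranged from 1304 to 5669 CPM, so MI6h_R was below every Sham library. That 1 call was lost without each library but F4. Mx2, an antiviral GTPase, stood at 102, 68.2 and 16.3 CPM with F and 5.09, 5.72 and 6.73 CPM without (3.41 ± 1.34, adjusted p = 0.113). Cxcl10, a chemokine for T cells, stood at 26.4, 38.2 and 9.59 CPM with F and 5.67, 6.92 and 5.68 CPM without (2.02 ± 0.77, adjusted p = 0.103). With a fit to the 6 libraries alone, 13 of the 24 were called higher, and the cause of this difference between fits was not tested.

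Of 13 cardiomyocyte markers 0 were called by edgeR, and the median of -0.25 was -0.71 without F1 and 0.37 without R31. Myh6, the fast myosin of heart muscle, stood at 942, 279 and 245 CPM with F and 588, 590 and 1513 CPM without (-0.88 ± 0.55). Actc1, cardiac actin, overlapped as well (0.33 ± 0.41). Of 5 endothelial markers 1 was higher, beside 3.92% of all genes. Emcn, a sialoprotein of capillaries and veins, stood at 110, 113 and 93.6 CPM with F and 63.8, 47.5 and 49.8 CPM without (0.97 ± 0.23, adjusted p = 0.017). Of 16 angiogenesis genes 1 was lower, a share near the 5.71% of all genes. Pgf, placental growth factor, stood at 15.6, 25.5 and 21.7 CPM with F and 62.8, 42.9 and 36.1 CPM without (-1.17 ± 0.28, adjusted p = 0.0152). Emcn lost its call without F2, R21 or R31 and Pgf without F1 or R11 (adjusted p up to 0.0723 and 0.0833). Of 27 cytosolic ribosomal protein genes 1, Rps2, was lower (-0.85 ± 0.26, adjusted p = 0.0467), a share below the 5.71% of all genes. Its reads are uncertain because of near-identical copies, and its call was lost without any 1 library. Of 4 smooth muscle and pericyte markers 0 were called by edgeR, with a median of -0.33, and their sums of 442, 319 and 347 CPM with F lay below the 508, 462 and 530 CPM without. Of 3 mesothelial markers 0 were called by edgeR, with a median of 3.996. Msln, or mesothelin, stood at 1.46, 14.95 and 5.12 CPM with F and 0.0970, 0.421 and 0.827 CPM without (log2 fold change 3.996 ± 1.54, adjusted p = 0.106). The part of these cell markers in the results above was not tested.

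**Figure D3:**
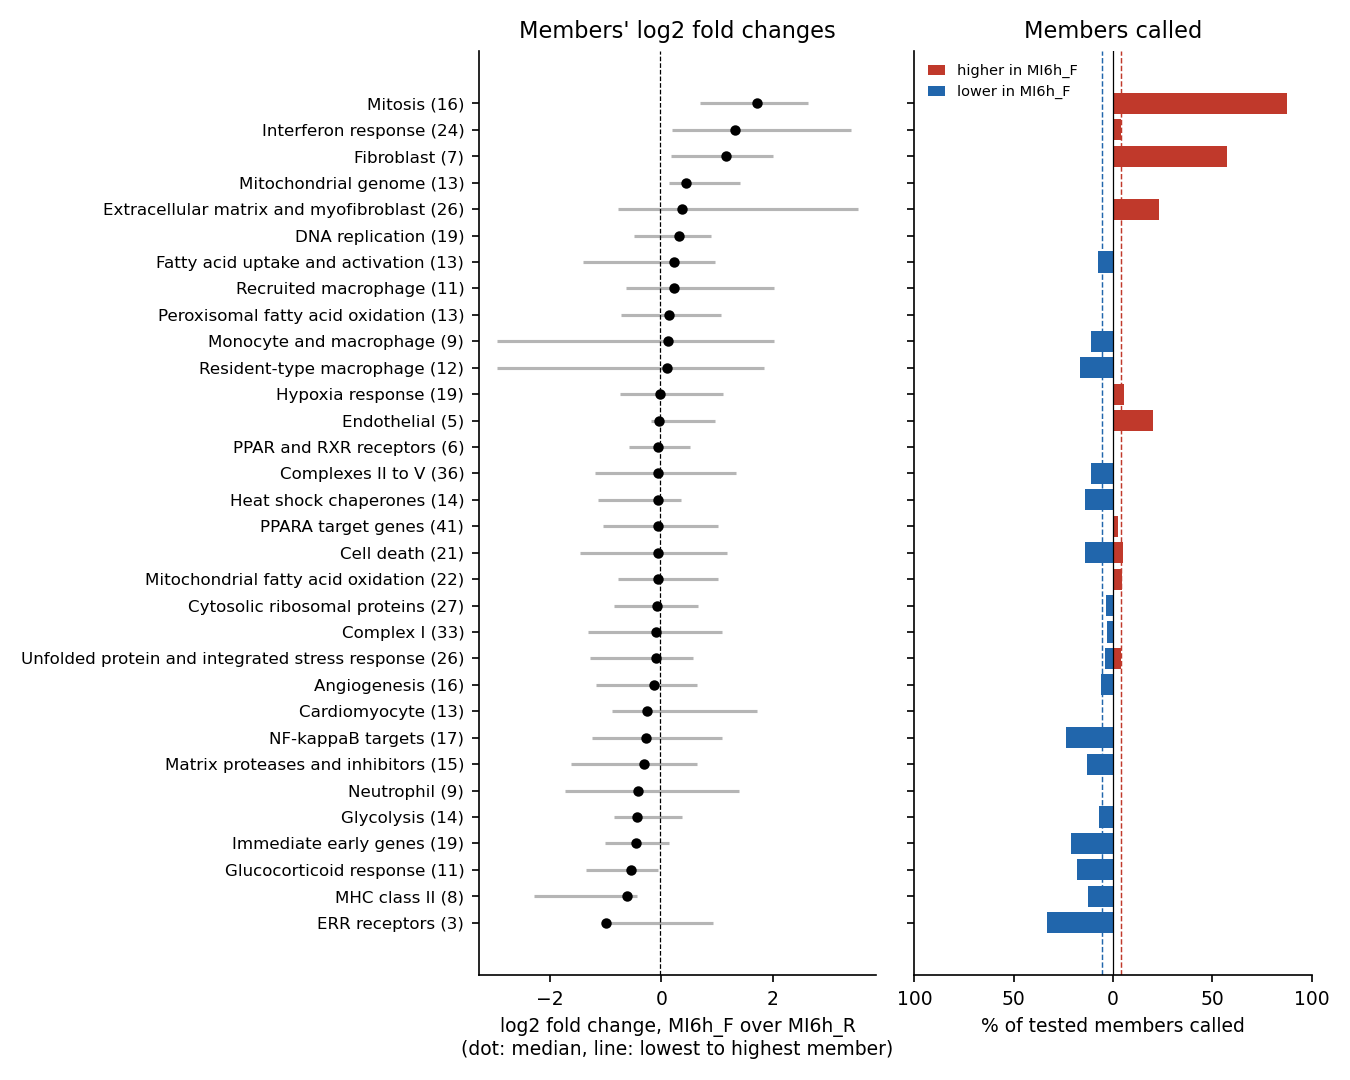
The left panel gives for each of 32 gene lists (number of tested members in brackets) the median log2 fold change of MI6h_F over MI6h_R as a dot and the lowest to highest member as a line, with the median of all genes, -0.02, dashed. The right panel gives the percentage of members called higher (red, to the right) and lower (blue, to the left), with the 3.92% and 5.71% of all genes dashed. Mitosis has 14 of 16 members higher, and interferon response has a median of 1.33 with 1 of 24 called.

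Several of the largest falls were in genes outside these lists. Naa38, a subunit of an enzyme that acetylates new proteins, stood at 8.23, 4.01 and 12.9 CPM with F and 46.9, 32.8 and 34.1 CPM without (-2.18 ± 0.41, adjusted p = 0.0053). Krt7, a keratin of simple epithelia, stood at 3.52, 3.95 and 5.65 CPM with F and 18.5, 23.3 and 14.4 CPM without (-2.10 ± 0.36, adjusted p = 0.00391). Like Cd163, Krt7 was highest in MI6h_R: MI1h_R and MI24h stood at 3.66 ± 0.887 and 3.85 ± 0.851 CPM (SD, n = 3 each). Xirp1, an actin-binding protein of the intercalated disc, stood at 109, 101 and 92.9 CPM with F and 299, 336 and 489 CPM without (-1.89 ± 0.38, adjusted p = 0.00762). Tinagl1, a matrix glycoprotein, stood at 47.7, 36.8 and 71.1 CPM with F and 240, 107 and 262 CPM without (-1.97 ± 0.33, adjusted p = 0.00363). Eif4ebp1, the translation brake that mTOR releases, stood at 31.5, 23.9 and 37.7 CPM with F and 126, 96.3 and 94.2 CPM without (-1.77 ± 0.30, adjusted p = 0.00391). Pfdn6, a subunit of the chaperone prefoldin, Fjx1, a secreted kinase-like protein, and Crispld2, a secreted protein, had log2 fold changes of -1.76 ± 0.31, -1.67 ± 0.29 and -1.65 ± 0.28. The calls of these 8 genes held without each library. Fgf1, a growth factor, and Ryr3, a calcium release channel, fell by 1.70 and 1.64 on the log2 scale (adjusted p = 0.0257 and 0.0133). Fgf1 was lost without F2, F4, R11 or R31 and Ryr3 without F2 or R31 (adjusted p up to 0.12 and 0.0716).

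Other genes were among the 15 largest increases named by rule. Trim59, a ubiquitin ligase, stood at 57.0, 50.9 and 34.7 CPM with F and 13.5, 11.4 and 12.95 CPM without (1.91 ± 0.27, adjusted p = 0.00264), and its call held without each library. Rgs18, a brake on G protein signals in blood cells, stood at 31.9, 49.5 and 40.5 CPM with F and 11.5, 14.9 and 5.62 CPM without (1.93 ± 0.48, adjusted p = 0.0205). Ptn, the growth factor pleiotrophin, stood at 41.2, 25.4 and 23.8 CPM with F and 11.9, 5.48 and 5.35 CPM without (1.98 ± 0.50, adjusted p = 0.022). LOC100362027, a gene without a name in the table at hand, stood at 40.95, 35.6 and 26.5 CPM with F and 8.05, 7.46 and 6.84 CPM without (2.20 ± 0.64, adjusted p = 0.0366). The last 3 lost the call when a library was left out: Rgs18 without F2, R11 or R31, Ptn without F1, F2, R21 or R31 and LOC100362027 without any but F4 (adjusted p up to 0.0854, 0.0855 and 0.106).

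The same contrast in the other injuries shares no library with late reperfusion and shows where its genes stood there. With permanent ligation, 1523 genes differed between MI24h_F and MI24h (13%). Of the genes called higher in late reperfusion 98.5% had a positive log2 fold change there, beside 45.1% of all genes. Of those called lower 99% had a negative one, beside 54.9%. Over all genes tested 76.2% had the same sign in both contrasts. Both contrasts called 657 genes in the same direction and 0 in opposite directions, which is 58.1% of the calls in late reperfusion and 43.1% of those in permanent ligation. Among them Esrra stood at -0.99, Tnfrsf12a at -1.88, Naa38 at -2.17, Nusap1 at 1.36 and Trim59 at 1.46 with permanent ligation. Of the mitosis genes 5 of 16 were called higher there, with a median of 1.05. At an unadjusted p under 0.05 by edgeR lay 3060 genes in late reperfusion, 3419 in permanent ligation and 1917 in early reperfusion. With early reperfusion, 9 genes differed between MI1h_F and MI1h_R after adjustment (0.0766%). There 82.2% of the genes called higher in late reperfusion had a positive log2 fold change and 83.6% of those called lower a negative one, beside 50.2% and 49.8% of all genes, with medians of 0.26 and -0.27. Over all genes tested 59.1% had the same sign in late and early reperfusion. In early reperfusion Col1a1 had a log2 fold change of 1.60 ± 0.36 (adjusted p = 0.0845) and Nusap1 one of 1.09 ± 0.40.

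**Figure D4:**
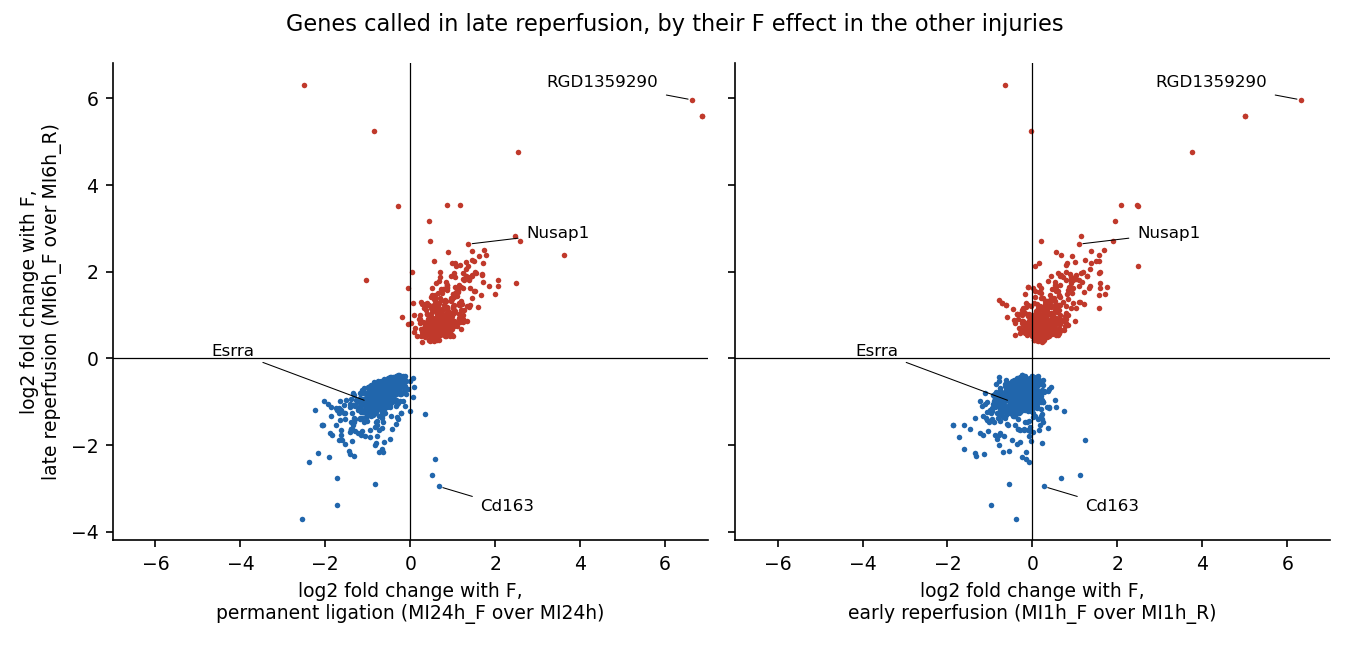
Each point is 1 of the 1130 genes called in late reperfusion (red higher, blue lower), with its log2 fold change there on the y axis and the log2 fold change of the same contrast in permanent ligation (left) or early reperfusion (right) on the x axis. In the left panel 98.5% of the red points lie to the right of 0 and 99% of the blue points to the left, and Cd163 is among the exceptions.

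Whether the effect of F itself differed between injuries was tested gene by gene. Between late reperfusion and permanent ligation 0 genes differed by edgeR (0% of those tested), with 425 at an unadjusted p under 0.05, 1 gene called by DESeq2 and 0 by limma-voom. Between late and early reperfusion 1 gene differed (0.00852%), the ribosomal protein gene Rpl41, with 1551 at an unadjusted p under 0.05. This count depended on the tool: DESeq2 called 53 genes and limma-voom with quality weights 1271. Cd163, which fell by 2.95 on the log2 scale in late reperfusion, had log2 fold changes of 0.27 ± 0.54 in early reperfusion and 0.67 in permanent ligation. Its differences of -3.22 ± 0.78 and -3.62 ± 0.79 did not pass edgeR's adjustment over all genes (adjusted p = 0.264 and 1). The interferon genes had a median of 1.33 in late reperfusion, -1.61 in early reperfusion and -0.13 in permanent ligation. For Mx2 the late minus early difference was 6.07 ± 1.85 and for Cxcl10 4.13 ± 1.09, each with an adjusted p of 0.264.

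**Figure D5:**
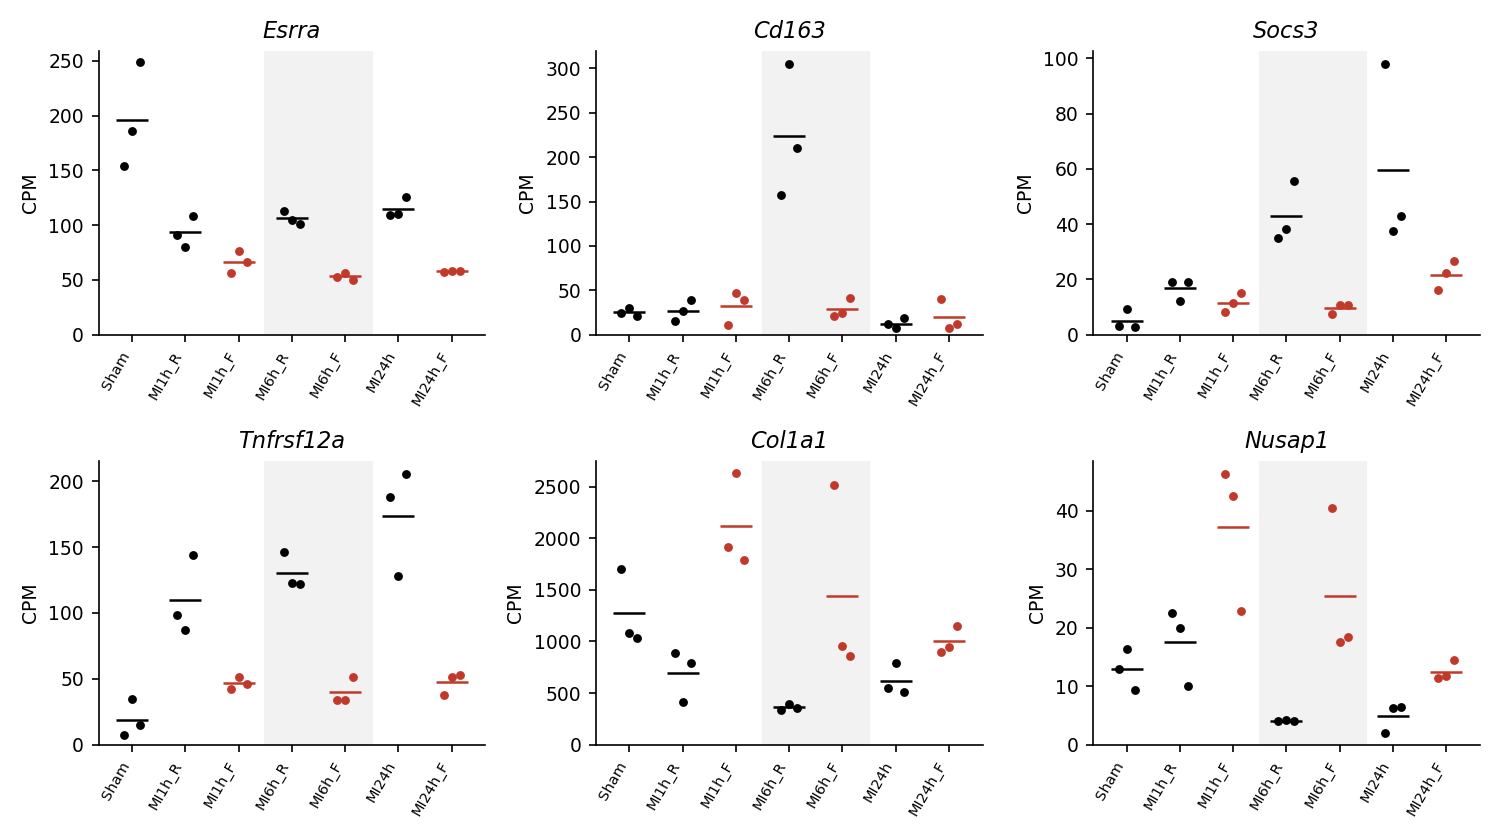
CPM of 6 named genes in every library of the 7 groups (3 points each, bar: mean), with groups without F in black, groups with F in red and late reperfusion shaded. Cd163 is high in the 3 MI6h_R libraries only (157 to 305 CPM), while in Esrra and Tnfrsf12a every library with F lies below every injured library without.

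A small set of genes separated all 9 libraries with F from all 12 without, whatever the injury. In 46 genes every library with F stood above every library without. Of these, 35 were called higher in late reperfusion, beside 3.92% of all genes. In 47 genes every library with F stood below, and 34 of these were called lower, beside 5.71% of all genes. The sets were chosen on all libraries, the 6 compared here among them, so those calls are partly built into the choice. Some members have identical values, as Mxd3 and Rab24 do, so the sets hold repeats. The widest gap among the genes looked at was in RGD1359290, chosen after its values were seen, which RefSeq lists as a pseudogene copy of the ribosomal protein gene Rpl17. It stood at 10.02, 13.4 and 11.4 CPM in F1, F2 and F4 and at 0.339, 0.0602 and 0.110 CPM in R11, R21 and R31 (log2 fold change 5.96, adjusted p = 9.71e-06). Over the series it ranged from 9.06 to 19.4 CPM with F and from 0 to 0.339 CPM without. Reads of such copies are uncertain, and with no batch in the labels and no Sham group with F, F and the making of these libraries cannot be told apart here either.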

How the data were processed

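RNA was taken from the infarct zone, libraries were made from mRNA with a NEBNext Ultra kit and sequenced on an Illumina HiSeq, per the labels' protocols. Reads were processed with STAR 2.7.3a and RSEM 1.3.1 on rn7, per the submitters' processing notes. The authors deposited a table of estimated counts per gene, which holds whole numbers, and a table of TPM values, which are scaled for gene length and library. The annotation and whether counting used strand are not given in the sources used here, so overlapping and antisense genes cannot be told apart. In the deposited counts 1131 genes share identical counts with another gene, 64 of them called.

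Computed here: all 21 libraries in 7 groups were fitted together with edgeR 4.0.16 in R 4.3.3 (TMM factors, its filter on low counts, quasi-likelihood test, Benjamini-Hochberg adjustment over 11742 genes, threshold 0.05), with 14 residual degrees of freedom. Every log2 fold change, SE and adjusted p in the text is from this fit unless another tool is named. Each SE was derived as the absolute log2 fold change divided by the square root of the test's F statistic. Such an SE is approximate, and unreliable where the log2 fold change is near 0. An exact permutation test of 3 against 3 libraries cannot go below p = 0.1, so none is given. Totals of 12208041 to 18393795 counts set the precision per library. Alternatives used DESeq2 1.42.0, limma 3.58.1 (voom with quality weights, and log2(TPM + 1) with a pseudocount of 1), other scalings and filters, and fits with 1 library left out. Principal components used log2(CPM + 1). The edgeR test of MI6h_F against MI6h_R was tried on simulated counts with known changes, drawn with edgeR's own estimates of the spread. The other contrasts, tools and fits were not simulated. Figures used Python 3.11.15 and matplotlib 3.10.9.

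Genes were named by rule: the PPAR and ERR receptors and Ppargc1a; the 15 higher and 15 lower with the largest changes among called genes with a mean of at least 10 CPM and no overlap; and from each list up to 4 by p, with the most abundant member where none was called. Members and lists (58 lists, 742 of 882 symbols tested, 15 matched by an older name) were chosen with earlier results of these data known. RefSeq names and promoters are from GRCr8 and serve names and letters only. Some genes that the rule names are not reported here.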

Additional observations from a re-analysis of the deposited data

Results flagged for a closer look

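Rpl41, a small ribosomal protein gene, was the 1 gene whose change with F differed between late and early reperfusion by edgeR's test of the difference (6.13 ± 0.89 on the log2 scale, adjusted p = 0.022). It stood at 12.9, 23.2 and 110 CPM in MI1h_R and at 1.41, 0.251 and 1.37 CPM in MI1h_F, while MI6h_R held 1.99, 2.11 and 2.15 CPM and MI6h_F 2.99, 3.88 and 2.17 CPM. The difference thus lay in the early groups, where Rpl41 had a log2 fold change of -5.60, and not in late reperfusion (0.53). The call was lost without F1 (adjusted p = 0.0525), F2 (0.081), R11 (0.136), R21 (0.118), R31 (0.112) or MI1h_F libraries 4 (0.0799) and 5 (0.0853). It was also lost on log2(TPM + 1) (0.0568), with the 12 libraries alone (0.0833), and with the replicate block (0.67). Reads of this gene are uncertain because of near-identical copies.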

How the results depend on the processing

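Of 109 named genes 71 were called, and over 16 alternatives they gave 1136 values, of which 971 kept call and direction, 165 lost the call and 0 reversed. Of the losses 133 came with 1 library left out, where fewer samples are tested, and 32 under other settings, whose cause was not tested. In all 30 genes kept the call in every alternative, and 19 of the 38 genes not called were called under at least 1. Genes higher numbered 460 in the fit reported, 783 by DESeq2, 266 on log2(TPM + 1), 886 by voom, and 107 (without F2) to 408 (without F4) with 1 library left out. Genes lower numbered 670, with 1121 by voom and 151 (without F2) to 487 (without F4) with 1 library left out. The fit to the 6 libraries alone called 565 higher and 491 lower, 53.5% higher. For late minus early reperfusion 1 gene was called, with 53 by DESeq2, 0 on log2(TPM + 1), 1271 by voom, 2 with the 12 libraries alone (Rpl41 not among them) and 0 to 3 with 1 library left out. For late reperfusion minus permanent ligation 0 genes were called, with 1 by DESeq2 and 0 in every fit with 1 library left out. The cause of these differences between tools was not tested.

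Among genes not called, the log2 fold change turned sign with 1 library left out for Actc1 (-0.19 without F1 to 0.54 without F4), Pdk4 (-0.90 without F1 to 0.46 without R31) and Ppara (-0.84 without F1, -0.22 without R11, -0.078 without R21, up to 1.16 without R31). MI6h_F and MI6h_R share no replicate number, so that comparison has no paired fit. With the replicate block, late minus early reperfusion and late reperfusion minus permanent ligation each called 0 genes. Of 13 pairs of libraries with the same number 2 had a correlation over 0.1 (range -0.538 to 0.293). Without values for pairs with different numbers, these correlations cannot decide whether the numbers pair the libraries, and that was not tested.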
